A study of Mus musculus with 3 samples.

Results

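The beta-defensins are small cationic peptides, held together by disulfide bonds, that epithelia secrete and that damage the membranes of bacteria and fungi. In the skin they are products of keratinocytes, and some of them also attract leukocytes through the chemokine receptor Ccr6. In the mouse the family has expanded in clusters of neighboring genes, and many of its members are known mainly from the epididymis.

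The beta-defensin genes were followed in macrophages of the telogen backskin, the resting phase of the hair cycle. The family was taken by gene symbol (Defb followed by a number) through the RefSeq transcript of each probe, and all 43 such genes of the mouse gene table were represented on the array, by 48 probes, among 19752 named genes in all. It was chosen by a measured value, since Defb6 was already known to be among the genes with the largest increases on these arrays, and that increase is given below only as a description. The cells were CD11b+Gr1-F4/80+ macrophages sorted by FACS from the skin of CD1 mice, for which no treatment or mutant allele is named. The methods of the study name female mice. The groups are told apart by age alone, which was postnatal day 42 (P42), 55 (P55), or 69 (P69). The study places these ages in early, mid, and late telogen and gives day 44 rather than 42 for the first. Each age was 1 array hybridized with amplified RNA pooled from 3 littermates. There was thus no spread between replicates, no difference could be tested, and in bulk RNA of this kind fewer cells of a type and less RNA per cell cannot be told apart.

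The arrays differed in signal before any scaling. The 75th percentile of the non-control probes lay at a processed signal of 414 on the P42 array, 497 on the P55 array, and 927 on the P69 array, and no spot was saturated. Levels are given as log2 of the processed signal relative to that percentile, so that 0 marks the percentile itself. Errors are those of the scanner software for 1 spot or of several spots averaged, and they hold no variation between mice, sorts, or amplifications. The deposited table of processed values assigns the P55 and P69 arrays the other way around, so the values given for P55 and P69 change places if that table is right. All 15 macrophage markers on the array were well above background on all 3 arrays. The level of Adgre1, which encodes F4/80, was 4.83 at P42, 5.51 at P55, and 5.15 at P69, and that of Itgam, which encodes CD11b, was 8.95, 8.73, and 7.85. Before scaling the processed signal of Itgam was 204886, 210213, and 214058, so its lower level at P69 appears only with the scaling. That of Adgre1 was 11734, 22693, and 33000.

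The genes that frame the results lie side by side on chromosome 8, in the order Defb14, Defb4, Defb6, Defb46, Defb5, Defb3, Defb8, and Defb7. Promoter sequences of RefSeq (GRCm38.p6), from 250 bases before the start of the transcript to 50 bases after it, were at hand for 29 of the 43 genes. Defb14 and Defb4 were not among the 29, so their promoters could not be compared. Of the 29 promoters, 5 shared a run of at least 16 bases with that of Defb6, and all 5 belonged to this stretch of neighbors. They were 82.0% to 86.2% identical to it over the aligned bases. The longest run shared with Defb6 by any other member with a promoter at hand was 14 bases. The 6 promoters are shown from 100 bases before a TATA-like element, which is in capitals, to 24 bases after it. They are shown because genes with such similar promoters had very different signals in the sorted cells.
Defb6, chr8:19225347-19225477, plus strand: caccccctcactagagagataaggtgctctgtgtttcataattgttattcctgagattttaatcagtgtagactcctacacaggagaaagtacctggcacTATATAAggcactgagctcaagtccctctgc
Defb46, chr8:19239758-19239888, plus strand: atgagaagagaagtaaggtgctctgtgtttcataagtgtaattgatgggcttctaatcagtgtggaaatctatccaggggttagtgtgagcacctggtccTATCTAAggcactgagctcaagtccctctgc
Defb5, chr8:19247434-19247564, plus strand: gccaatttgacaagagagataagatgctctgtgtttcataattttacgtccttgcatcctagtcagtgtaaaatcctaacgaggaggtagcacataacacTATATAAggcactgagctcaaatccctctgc
Defb3, chr8:19293215-19293345, plus strand: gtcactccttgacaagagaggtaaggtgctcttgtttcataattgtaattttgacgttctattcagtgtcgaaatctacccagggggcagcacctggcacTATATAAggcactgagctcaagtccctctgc
Defb8, chr8:19447621-19447751, minus strand: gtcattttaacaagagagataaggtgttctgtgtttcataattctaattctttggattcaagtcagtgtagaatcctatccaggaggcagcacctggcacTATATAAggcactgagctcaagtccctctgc
Defb7, chr8:19494950-19495080, plus strand: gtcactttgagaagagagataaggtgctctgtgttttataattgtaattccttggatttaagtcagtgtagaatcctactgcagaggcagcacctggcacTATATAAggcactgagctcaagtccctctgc

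The run taaggcactgagctcaa, of 17 bases, is common to all 6. The capitals read TATATAA in 5 of them, and those of Defb46 read TATCTAA. Their first base lies between 31 and 58 bases before the annotated start. On either strand TATATAA occurred in 5 of the 29 member promoters (17.2%), compared to 3.24% of 32851 mouse promoters of the same length. All 5 are in the group shown above, whose promoters were picked for their likeness to that of Defb6, so they are not independent cases. The letters GGGNNNNNCC, a loose form of the NF-kB motif, occurred in 10 member promoters (34.5%), including those of Defb6, Defb3, and Defb46, compared to 50.8% of all promoters. The AP-1 letters TGANTCA occurred in 2 (6.9%), those of Defb11 and Defb26, compared to 7.81%. The STAT letters TTCNNNGAA occurred in 4 (13.8%, compared to 8.3%), the AP-2 letters GCCNNNGGC in 3 (10.3%, compared to 16.6%), and TATAAA in 5 (17.2%, compared to 13.6%). Matches of different motifs were allowed to overlap.

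Defb6 was the beta-defensin with a large increase. Its processed signal was 88.7 ± 9.88 on the P42 array, 5641 ± 564 on the P55 array, and 6304 ± 630 on the P69 array. Both later arrays were thus high and the P42 array was low, although the gene was well above background on all 3. Relative to the 75th percentile its level was -2.22, 3.51, and 2.77 (log2), a change of 5.73 ± 0.22 from P42 to P55 (53.0-fold) and of 4.99 ± 0.22 from P42 to P69 (31.7-fold). Between the later arrays the level at P69 was 0.74 ± 0.20 below that at P55, but without scaling it was 0.16 ± 0.20 above it, so that the order of P55 and P69 depends on the scaling. Of the 14162 genes measured on both the P42 and P69 arrays, 3 had a larger increase, and of the 13249 measured on both the P42 and P55 arrays, 1 did. These ranks led to the choice of the family and are no evidence of their own. Under the alternative scalings, background corrections, and assignments of the arrays, the change lay between 4.19 and 6.15 at P69 and between 4.90 and 6.29 at P55.

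The neighbors of Defb6 did not show this pattern. The level of Defb46 was -1.95 at P42 and was not well above background on either later array (processed signal 107.4 ± 11.6, then 29.9 ± 7.35 and 6.91 ± 6.43), at least 8.37-fold lower at P69 and at least 4.27-fold lower at P55. Defb7 was measured on all 3 arrays at -2.0, -3.43, and -3.99, a change of -1.44 ± 0.32 to P55 and of -2.0 ± 0.28 to P69. Defb3, known as a defensin of the airways that is induced by infection, was well above background at P55 only, where its level was -2.71, at least 3.31-fold higher than at P42. Its processed signals were 4.28 ± 4.29, 75.7 ± 9.77, and 13.5 ± 6.02. Thus among the 5 genes that share the proximal promoter with Defb6, 2 were lower on both later arrays and 1 was above background on the P55 array alone. For Defb5 and Defb8 no array gave a signal well above background. The probe sequences were not used here, and whether a probe of this cluster also binds the transcripts of its neighbors was not tested.

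**Figure D1:**
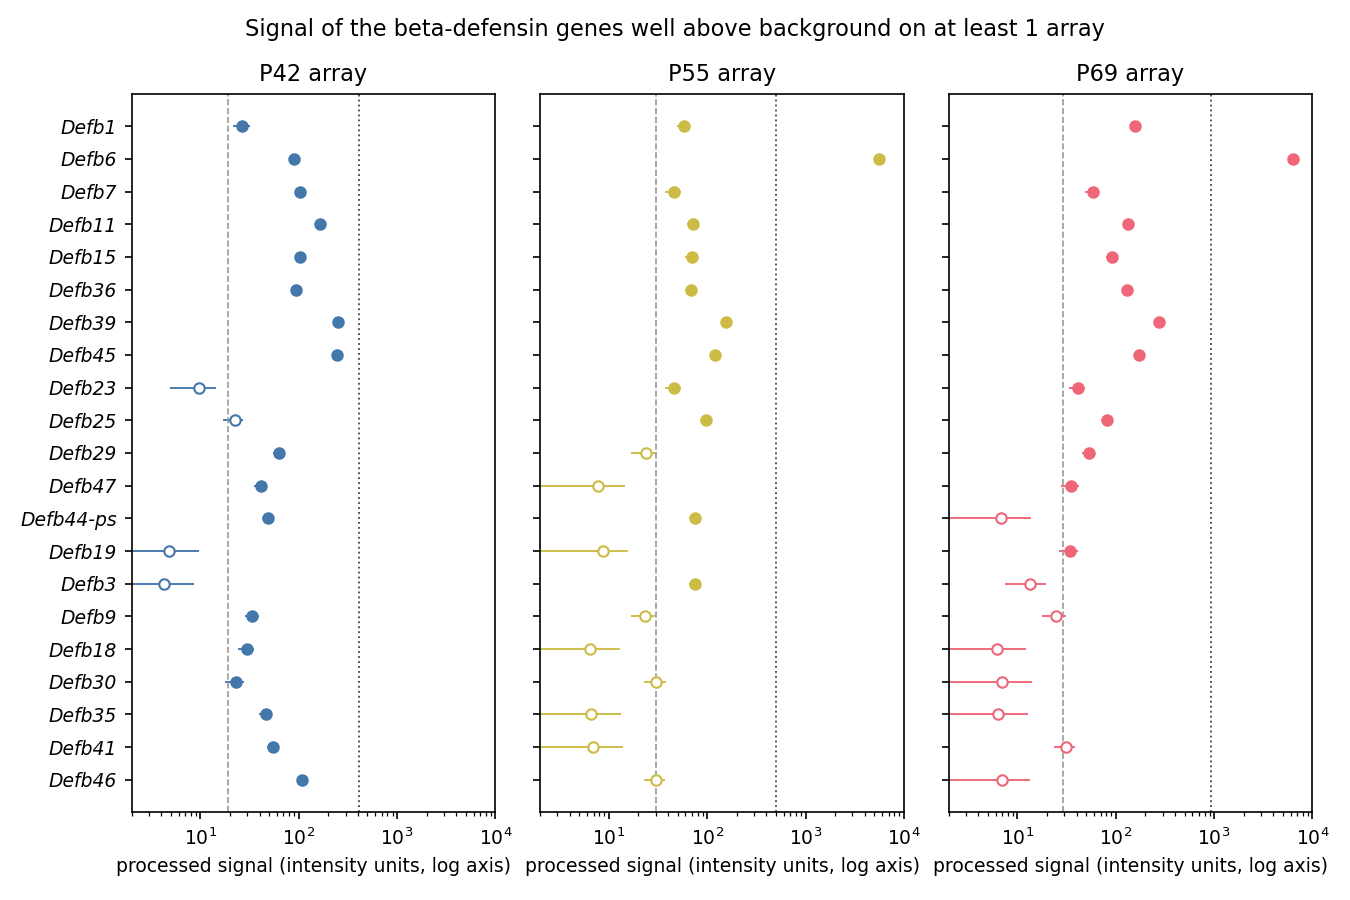
Processed signal (intensity units, log axis) of the 21 beta-defensin genes well above background on at least 1 array, in 1 panel per array. Filled points were well above background and open points were not, bars give the error of the scanner software, the dashed line is the lowest signal well above background, and the dotted line is the 75th percentile of the array. Defb6 is the only one of these genes past the dotted line, at 5641 on the P55 array and 6304 on the P69 array.

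The best known skin defensins gave little or no signal. Defb14, the counterpart of human beta-defensin 3, had a processed signal of 4.43 ± 4.45 at P42, 6.79 ± 6.82 at P55, and 6.56 ± 6.58 at P69. Defb4, the counterpart of the inducible human beta-defensin 2, had signals of 4.61 ± 4.63, 6.50 ± 6.52, and 6.26 ± 6.29. For both genes the error was as large as the signal on every array, and neither was well above background. Defb1, which epithelia express without induction, was measured on all 3 arrays, with signals of 26.6 ± 5.25, 57.5 ± 8.65, and 158 ± 16.9. Its level was -3.96 at P42, -3.11 at P55, and -2.55 at P69, a change of 0.85 ± 0.36 to P55 and of 1.41 ± 0.32 to P69. Thus Defb1 was highest on the P69 array, with or without scaling. Of the 14162 genes measured at P42 and P69, 1677 had a larger increase than Defb1, and the change lay between 0.14 and 2.58 under the alternatives.

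Of the 43 genes, 21 were well above background on at least 1 array (48.8%), compared to 84.1% of all named genes. The count was 17 at P42, 12 at P55, and 13 at P69, where 77.9%, 70.6%, and 77.2% of all named genes were detected. On all 3 arrays 8 of the 43 were detected (18.6%, compared to 66.5%), namely Defb1, Defb6, Defb7, Defb11, Defb15, Defb36, Defb39, and Defb45. The call may also take in weak signals that are not expression, which was not tested. For comparison, olfactory receptor genes were well above background for 38.7% of 1057 genes at P42, 13.7% at P55, and 20.9% at P69. Vomeronasal receptor genes gave 54.3%, 23.7%, and 32.4% of 219. The family gave 39.5%, 27.9%, and 30.2%, and, like both receptor families, it had its highest share on the P42 array. Of the negative control spots 0.649% were called at P42, 1.3% at P55, and 1.62% at P69. With the looser call of a signal positive and significant against the local background, 34 of the 43 genes passed on at least 1 array, compared to 94.2% of all named genes. It gave 31, 20, and 20 of them at P42, P55, and P69, compared to 89.6%, 82.2%, and 87% of all named genes, and 14 on all 3 arrays, compared to 78%.

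**Figure D2:**
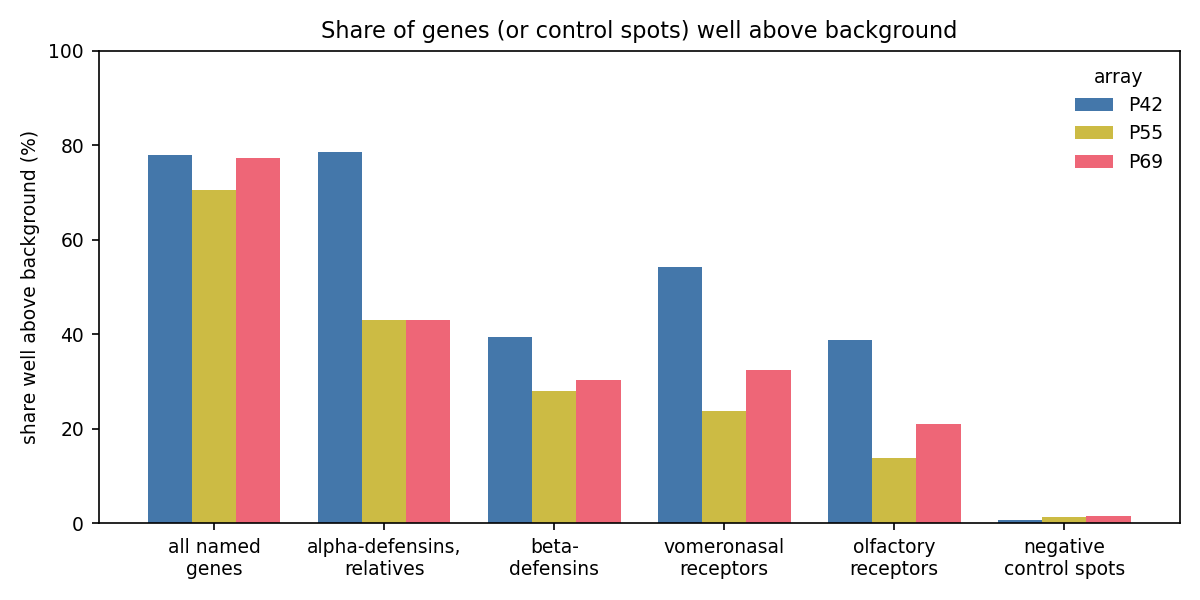
Share of genes well above background (%, vertical axis) on the P42, P55, and P69 arrays for all named genes, the alpha-defensins with related genes, the beta-defensins, the vomeronasal and the olfactory receptors, and for the negative control spots. The beta-defensins gave 39.5%, 27.9%, and 30.2%, below all named genes on each array, and between the receptor families at P42 and P69 but above both at P55.

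By position, 10 of the 24 genes on chromosome 8 were detected on some array, 6 of the 11 on chromosome 2, 2 of the 5 on chromosome 14, and all 3 on chromosome 1. The genes of chromosome 1 were all above background at P42, 1 of them at P55, and none at P69. The count for chromosome 2 went the other way, with 3 at P42, 4 at P55, and 6 at P69. The levels did not follow this count, since the 3 genes called at P42 (Defb29, Defb36, and Defb45) changed by -1.38, -0.71, and -1.68 to P69. The lowest level called on the array also differed, at -4.44 for P42 and -5.01 for P69. The counts are small and were not tested. No array gave a call for the 22 remaining genes, Defb2, Defb4, Defb5, Defb8, Defb10, Defb12, Defb13, Defb14, Defb20, Defb21, Defb22, Defb26, Defb28, Defb33, Defb34, Defb37, Defb38, Defb40, Defb42, Defb43, Defb48, and Defb50.

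Apart from Defb6 and Defb1, most members were lower on the later arrays relative to the 75th percentile. From P42 to P69 a change could be given for 18 genes, 8 of them as bounds because 1 array was not above background. Of these 3 were higher and 15 lower, with a median of -1.39 compared to 0.15 over all 16164 genes with a value. From P42 to P55 it could be given for 19 genes, 10 of them as bounds, of which 6 were higher and 13 lower, with a median of -0.73 compared to 0.22 over 15843 genes. Without Defb6 the medians were -1.40 and -0.77. The family median stayed below 0 under every scaling tried, but without scaling it was only -0.22 at P69, where the median of all genes was 1.32. Olfactory receptor genes had medians of -1.53 at P69 and -0.77 at P55, and vomeronasal receptor genes -1.48 and -0.95. In each of these sets many values were bounds, 242 of 424 olfactory and 62 of 124 vomeronasal values at P69 and 294 of 416 and 67 of 115 at P55, and a gene detected at P42 alone can only come out lower. Over the genes measured on both arrays the medians at P69 and P55 were -1.36 and -0.82 for 10 and 9 members, -1.34 and -0.89 for 182 and 122 olfactory genes, and -1.20 and -1.04 for 62 and 48 vomeronasal genes, compared to 0.20 and 0.38 over all genes so measured. The cause of the lower values was not tested.

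At P69 only Defb6 was 10-fold higher than at P42, where 0.668% of all genes were, and no member was 10-fold lower, where 0.464% were. At P55 again only Defb6 was 10-fold higher (1.12% of all genes) and none 10-fold lower (0.316%). At a threshold of 2-fold, 2 members were higher and 13 lower at P69, where 22.2% and 20.7% of all genes passed. At P55 the counts were 3 and 6, where 29.1% and 16.9% passed. A member detected on the P42 array alone can only be lower later. At P69 6 of the 15 lower genes are of that kind, and of these only Defb30 had a bound below 2-fold. Defb44-ps, detected at P42 and P55, could likewise only be lower at P69. At P55 the lower values of Defb9, Defb18, Defb29, Defb35, Defb41, Defb46, and Defb47 were bounds fixed in direction in the same way. In turn Defb25 could only be higher at P69, and Defb3, Defb23, and Defb25 only higher at P55.

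**Figure D3:**
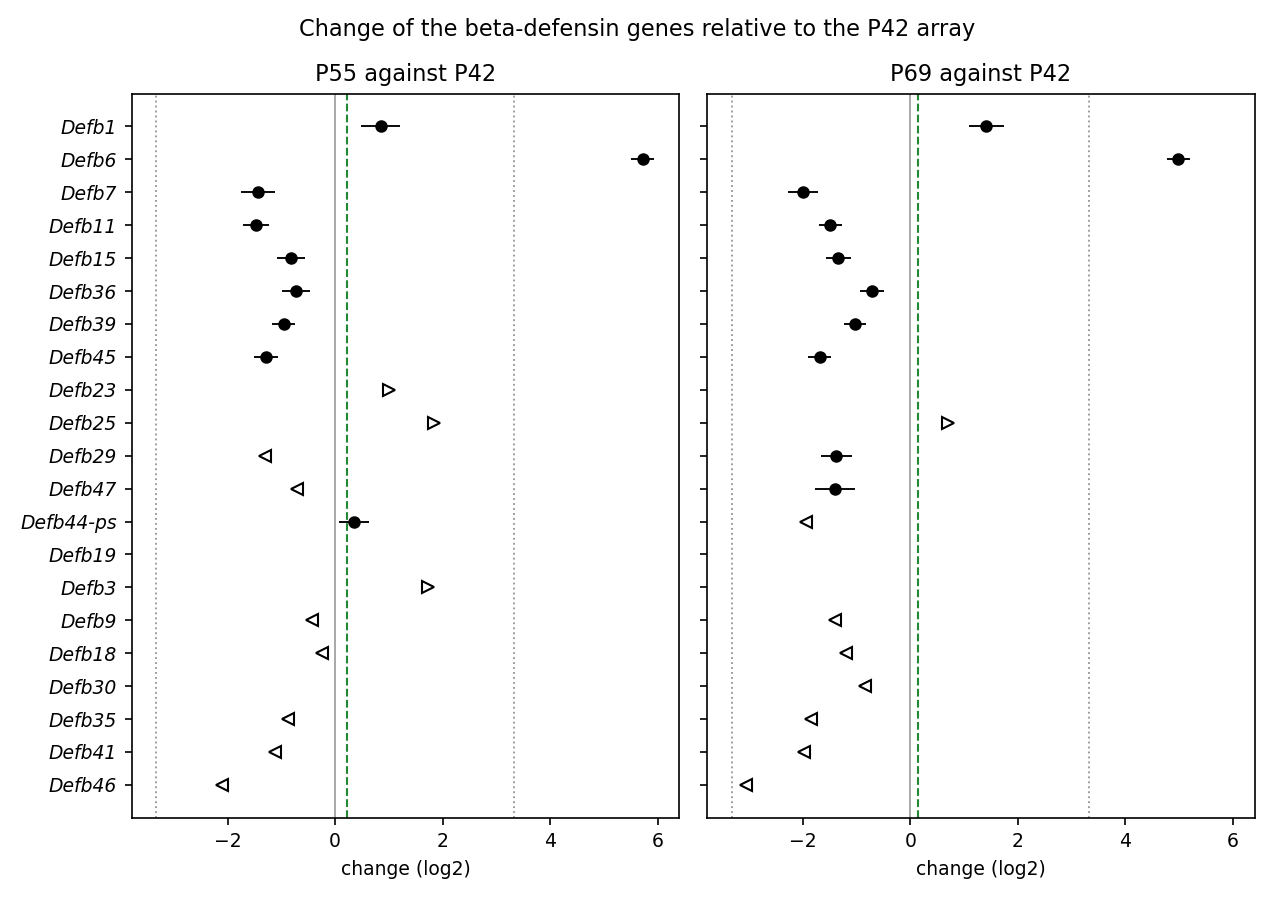
Change (log2) of each beta-defensin gene from the P42 array to the P55 array (left) and to the P69 array (right). Filled points with bars are genes measured on both arrays with the error of the software, open triangles are bounds that point toward the true value, the dotted lines mark 10-fold, and the dashed line is the median of all genes (0.22 and 0.15). Only Defb6 lies past 10-fold. Defb19 has no value in either panel, Defb30 has none at P55, and Defb3 and Defb23 have none at P69.

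Several of the lower members are known from the epididymis, an organ that female mice do not have. Defb39 had levels of -0.72 at P42, -1.68 at P55, and -1.75 at P69, a change of -0.95 ± 0.22 and -1.03 ± 0.21. Its raw signals were 251 ± 25.5, 155 ± 17.0, and 275 ± 28.3, so that at P69 its direction turned to 0.14 without scaling between arrays. Defb11, with levels of -1.31, -2.78, and -2.80, changed by -1.47 ± 0.25 and -1.49 ± 0.22. On this scale both genes differed between the later arrays by less than the error. Defb15 had levels of -2.01, -2.83, and -3.35, with changes of -0.82 ± 0.26 and -1.34 ± 0.24. Defb36 had -2.13, -2.85, and -2.84, with changes of -0.73 ± 0.26 and -0.71 ± 0.23, and the last became 0.45 without scaling. Its second probe was above background at P42 alone and at least 2.99-fold lower at P69. Defb45 had -0.76, -2.04, and -2.44, with changes of -1.28 ± 0.22 and -1.68 ± 0.21, from 1 of its probes, whereas its second probe was never above background. These 5 genes, Defb7, and Defb1 are the members besides Defb6 measured on all 3 arrays.

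For the 10 members measured at both P42 and P69 the change exceeded 2 times the software's error, with 2 higher and 8 lower, and so did that of 72.2% of all genes so measured. At P55 this held for 8 of 9, with Defb44-ps as the exception (74.8% of all genes), and between the later arrays for 4 of 10 (57.5%). The software's error covers the reading of the spots alone.

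The remaining members were above background on 1 or 2 arrays and close to the limit of detection. Defb29 had levels of -2.73 at P42 and -4.11 at P69, a change of -1.38 ± 0.29. Defb47 had -3.34 and -4.74 on the same arrays, a change of -1.40 ± 0.37. Neither was above background at P55, where Defb29 was at least 2.48-fold and Defb47 at least 1.63-fold lower than at P42. Defb44-ps, a pseudogene by its name, had -3.07 at P42 and -2.71 at P55, a change of 0.36 ± 0.28, and at P69 it was at least 3.85-fold lower than at P42. Its second probe was above background at P55 alone. The P42 array alone detected Defb9, Defb18, Defb30, Defb35, Defb41, and Defb46, and 5 of these had levels between -4.17 and -2.93, the exception being Defb46. They were at least 2.64-fold (Defb9), 2.31-fold (Defb18), 1.80-fold (Defb30), 3.59-fold (Defb35), and 3.95-fold (Defb41) lower at P69. Both probes of Defb41 gave this pattern. At P55 the bounds were 1.35-fold, 1.18-fold, 1.83-fold, and 2.16-fold for Defb9, Defb18, Defb35, and Defb41, and none could be given for Defb30.

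A few genes of the chromosome 2 cluster were detected only on later arrays. Defb25 had levels of -2.37 at P55 and -3.51 at P69, at least 3.60-fold and 1.63-fold higher than at P42. Defb23 had -3.44 and -4.49, at least 1.99-fold higher at P55, with no fold to be given at P69. Defb19 was above background at P69 alone, at -4.77, and its signal of 34.1 ± 7.34 allowed no fold. The change from P55 to P69 was -1.14 ± 0.26 for Defb25 and -1.05 ± 0.37 for Defb23, but without scaling it was -0.24 and -0.15, within the same errors.

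The lists of related genes did not share the increase of Defb6. Of the 30 medians given for these and the marker lists, 21 are below 2-fold, and 16 of those changed sign under at least 1 alternative, whereas the other 9 kept theirs. Of the 14 alpha-defensins and related genes, 11 had a value, of which 10 were lower at P69 and all 11 at P55, with medians of -1.73 and -1.18 and no gene past 10-fold. In each comparison 5 of the 11 values were bounds for genes detected at P42 and not on the later array, which could only be lower. Over the 6 genes measured on both arrays the medians were -1.37 at P69 and -1.08 at P55. Among 24 other antimicrobial proteins of skin, 7 were higher and 8 lower at P69 (median -0.19) and 8 higher and 6 lower at P55 (median 0.01). Wfdc21 was the member past 10-fold, with levels of -3.43, 0.02, and -1.96 and a change of 3.45 ± 0.09 at P55. Camp, the cathelicidin that acts beside defensins in skin, was above background at P55 alone, at -3.52.

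The receptors that beta-defensins bind were mostly present. Of 8 genes, 5 were higher and 1 lower at P69 (median 0.51), and 4 were higher and 3 lower at P55 (median 0.07). Ccr6 had levels of 2.32 at P42, 2.84 at P55, and 2.69 at P69, with changes of 0.52 ± 0.20 and 0.36 ± 0.20. Of 26 cytokines, receptors, and regulators known to induce beta-defensins in epithelia, 13 were higher and 12 lower at P69 (median 0.14) and 15 higher and 9 lower at P55 (median 0.43). Vdr, the vitamin D receptor, was the one past 10-fold, with levels of -3.92, 0.93, and -0.30 and changes of 4.84 ± 0.32 to P55 and 3.62 ± 0.32 to P69.

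Most markers of keratinocytes moved with Defb6. Of 22 markers, 19 were well above background at P42, 20 at P55, and 21 at P69. Of 20 with a value, 18 were higher at P69 (median 3.04) and 19 at P55 (median 3.33), and 7 and 10 of them were at least 10-fold higher. Those past 10-fold at both ages were Lor, Cdh1, Pkp1, Calml3, Perp, Krt15, and Krt5, and Dsg1a, Krt17, and Krt1 were past it at P55 only. Lor, which encodes loricrin of the cornified envelope, had changes of 4.96 ± 0.34 at P55 and 6.09 ± 0.34 at P69. Their summed signal, in multiples of the 75th percentile, was 284 at P42, 463 at P55, and 311 at P69, or 22.5, 200, and 148 without Trp63, whose probe gave most of the P42 sum. Krt5, a keratin of the basal layer, had levels of 1.58, 5.55, and 4.91, and Krt14, its partner, had 1.22, 4.35, and 4.09. Like Defb6, both were lowest at P42 and, on this scale, highest at P55, whereas without scaling all 3 genes were higher at P69 than at P55 (by 0.26 for Krt5 and 0.64 for Krt14). Ivl and Trp63 did not share the increase. Ivl changed by -0.77 ± 0.30 to P55 and -0.07 ± 0.23 to P69, and Trp63 by 0.01 ± 0.20 and -0.68 ± 0.20. Sprr1b was not above background on any array, Flg2 was above it at P69 alone, and Dsg1a was below it at P42. The part of keratinocyte RNA in the change of Defb6 was not tested.

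**Figure D4:**
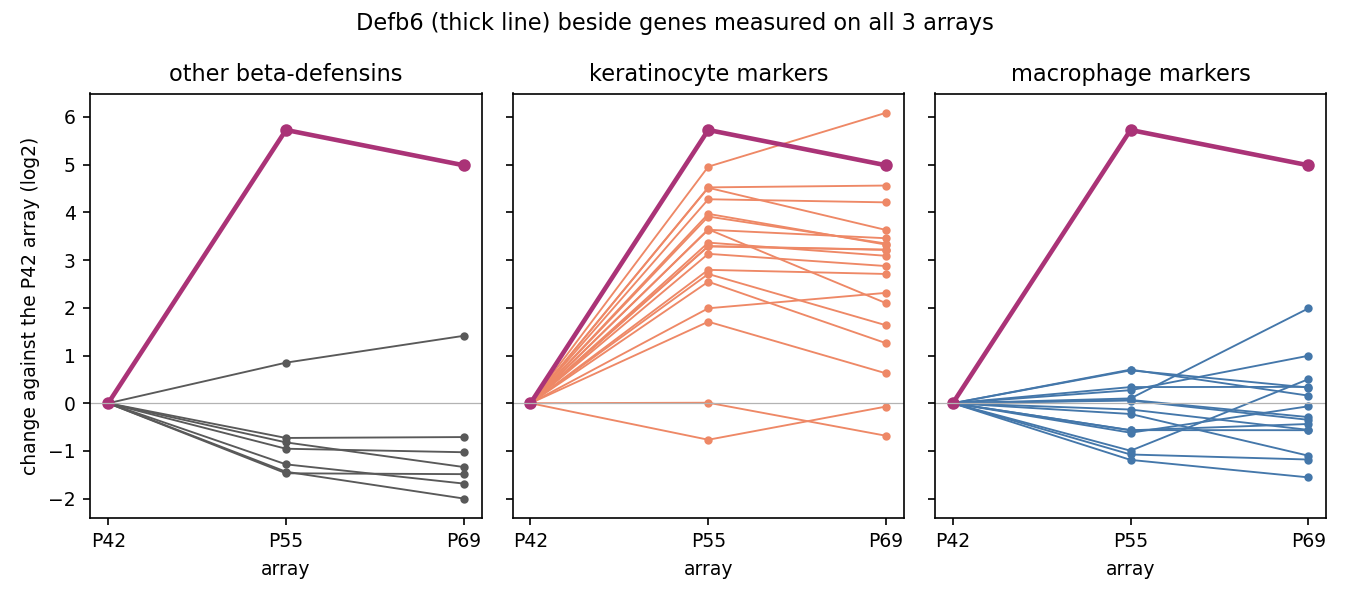
Change against the P42 array (log2, vertical axis) on the P42, P55, and P69 arrays for genes measured on all 3, with 7 other beta-defensins (left), 19 keratinocyte markers (middle), and 15 macrophage markers (right) as thin lines and Defb6 as the thick line in each panel. Defb6 reaches 5.73 at P55, above all of these keratinocyte markers, and 4.99 at P69, below Lor alone, whereas the macrophage markers stay between -1.55 and 1.99.

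The other marker lists went different ways. Of the 15 macrophage markers, 6 were higher and 9 lower at P69 (median -0.29) and 7 higher and 8 lower at P55 (median -0.13), with a summed signal of 893, 789, and 538. The sign of these medians depended on the scaling. Itgam had the highest level of the list on every array and weighed most in the sums. Its signal before scaling did not fall (204886, 210213, and 214058). Among the Langerhans and dendritic cell markers, some moved with Defb6. Their summed signal was 47.7, 164, and 99.4, and their medians were -0.91 at P69 and 0.22 at P55. Cd207, which encodes langerin, had the highest level of the list at P55 (6.76) and P69 (5.90) and weighed most in the sums of those arrays. Its change was 2.99 ± 0.20 to P55 and 2.13 ± 0.20 to P69. Itgax changed by 2.73 ± 0.20 and 2.17 ± 0.20, and Epcam, which is also on the keratinocyte list, by 2.80 ± 0.20 and 2.71 ± 0.20. Flt3, Xcr1, and Cd209a had values between -0.73 and -0.03 at P55 and between -1.51 and -0.91 at P69, and Ccr7 had 0.22 and -1.70. The summed signal was also lowest at P42 for T cell markers (1.93, 6.29, and 3.7) and for melanocyte markers (2.32, 6.41, and 6.22), of which all 6 were higher at P55 and 4 of 6 at P69. The part of these cells in the change of Defb6 was not tested. Medians at P69 and P55 were 1.02 and 0.71 for T cell markers, 0.98 and 1.43 for melanocyte, 0.14 and -0.56 for mast cell, -0.08 and -1.0 for endothelial, -0.80 and -1.0 for fibroblast, and -0.29 and 0.33 for neutrophil markers. Of 5 T cell markers, 4 were higher and 1 lower at P55, and 3 were higher and 2 lower at P69. Cd3e, of the T cell receptor complex, rose most, by 4.20 ± 0.23 at P55 and 3.08 ± 0.23 at P69. Lck was lower at both ages, with changes of -0.78 and -0.69. Of 10 markers of the epididymis, absent from the female mice that the study names, 4 had a value at P69 and 3 at P55. All were lower (medians -1.66 and -1.04), but Rnase9 and Spink8 were detected at P42 alone and could only be lower. The markers Lcn5, Lcn8, Lcn9, Adam7, Cst8, and Cst12 stayed below the call throughout. Of 10 skeletal muscle genes, a tissue in which Defb6 is also known, 4 were higher and 3 lower at P69 (median 0.06) and 3 higher and 3 lower at P55 (median 0.17), and Myh1 and Myh2 stayed below the call throughout.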

How the data were processed

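Macrophages from mouse telogen backskin were measured on 1 Agilent 1-color array (Cy3) per age, all on 1 slide. The authors amplified the pooled RNA of 3 littermates as a whole transcriptome, scanned the arrays, and deposited linear spot intensities, background-corrected by the scanner software but not scaled from array to array. They also deposited a log2 table of 36409 probes, centered per probe, which was used as an alternative. Its normalization is not given in the sources used here, and its P55 and P69 columns match the scanner files of P69 and P55 (r = 0.999997 and 0.999995).

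From the deposited intensities, control and outlier spots (162, 274, and 281) were left out, spots of a probe were averaged, and each array's 75th percentile (log2) was subtracted. Detection of a probe required the software's call of well above background on a share of 0.5 or more of its spots, and detection of a gene required it of any of its probes. A gene takes its values from the probe with the highest mean. A symbol was found for 26056 of 55681 probes. With detection on 1 side only, the fold is a bound against the lowest detected signal of the other array, or against the probe's own signal there if that was larger. With 1 array per age no test was possible, and the number of arrays limits the precision. Repeated spots had a median SD (log2) of 0.13, 0.11, and 0.12. Promoters were aligned with Biopython 1.88, and normexp correction (offset 50) used limma 3.58.1 on median intensities. The steps were tested on simulated data.

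The members and lists were chosen with earlier results of these data known. The genes named are all members detected on an array, list genes past 10-fold, and Ccr6, Camp, Krt5, Krt14, Adgre1, and Itgam. The list of skeletal muscle genes and the receptor families were added after the data had been seen, as were the other list genes named.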

Additional observations from a re-analysis of the deposited data

How the results depend on the processing

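No paired analysis was possible because each age is 1 array, and for the same reason no array could be left out. Calling signals that were positive and significant against the local background gave 31, 20, and 20 of the 43 beta-defensin genes at P42, P55, and P69, 34 on at least 1 array, and 14 on all 3. The count of 10-fold higher genes at P69 was 2 in the authors' value table, and that of 10-fold lower genes at P55 was 4 there. Both counts use no detection call, and the share of all genes past 10-fold in that table was not taken. The lowest changes at P55 there, of Defb46 (-5.12), Defb44-ps (-4.01), and Defb35 (-4.01), rest on signals not above background on the P69 scanner array, which matches that column. At a threshold of 2-fold, 2 genes were higher and 13 lower at P69 (22.2% and 20.7% of all genes) and 3 and 6 at P55 (29.1% and 16.9%). At 5-fold 1 was lower at P69, and the share of all genes past 5-fold was not taken. The family median at P69 was -0.84 with scaling to the median, -0.71 with quantile normalization, -0.22 without scaling, -1.0 in the value table, -0.73 with the later arrays exchanged, and -1.03 without a detection filter. At P55 it was -0.26, -0.25, -1.63 (value table), and -1.39 (exchanged). Changes of single genes turned at P69 for Defb39 (0.14 without scaling) and for Defb44-ps (0.36 in the value table and 0.36 with the arrays exchanged). Among smaller changes, that of Defb36 at P69 was 0.45 without scaling, that of Defb30 at P69 was 0.14 in the value table, and that of Defb44-ps at P55 lay between -4.01 and 1.06. Keeping outlier spots moved none of the 37 changes of named members by more than the error. The value table holds probes of 32 of the 43 genes and all of their changes without a detection call.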
